A study of Mus musculus with 6 samples.

Results

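The cells described here were chosen for MHC class II transcript with little complement C1q, from single cells of the lower abdominal muscle (LAM) of male mice. A barcode was taken when it held at least 1000 unique molecular identifiers (UMIs, each counted as 1 captured transcript) and at most 10% of its UMIs in mitochondrial genes. It also had to hold at least 10 UMIs of H2-Ab1, at least 1 UMI of at least 2 of the genes Napsa, Ccr7, Plbd1 and Cytip, a sum of at most 3 UMIs of C1qa, C1qb and C1qc, and no UMI of Pdgfra or Cd3e. Of 63647 deposited barcodes, 53443 passed the limits on UMIs and mitochondrial genes and 892 met the whole rule. They are called H2-Ab1-high, C1q-low cells below, because the genes that define dendritic cells were only partly present in them.

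The study compared LAM tissue of 3 wild-type (WT) littermates and 3 Arom hum mice, all males of the FVB/N strain aged 9 to 10 weeks. Arom hum mice carry the human aromatase gene CYP19A1 under its native promoters and develop scrotal hernias, and WT mice lack it. Human aromatase makes estrogens from androgens. The tissue was dissociated with collagenase II and Dispase II and sequenced with the 10x Genomics 3′ chemistry, 1 library per mouse, and the mouse is the replicate throughout.

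Dendritic cells take up antigen, load its peptides onto MHC class II molecules and present them to CD4+ T cells. H2-Aa and H2-Ab1 encode the 2 chains of the I-A molecule, Cd74 the invariant chain that guards the peptide groove, and the H2-DM genes the exchange factor that lets peptide replace the last fragment of that chain. Dendritic cells that mature raise the receptor Ccr7 and leave the tissue for the draining lymph node, while most macrophages of skeletal muscle stay in place and make C1q.

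MHC class II genes are switched on through the X and Y boxes upstream of their start, to which RFX and NF-Y bind before the coactivator CIITA is recruited. The promoters of H2-Aa (chr17:34287774-34288073, minus strand) and H2-Eb1 (chr17:34305617-34305916, plus strand) are shown because both genes were detected in most of the cells and carry the paired boxes. Each runs from 250 bases before to 50 bases after the start of the gene, 5′ to 3′, in RefSeq sequence of GRCm38.p6, which is C57BL/6J and not FVB/N. Capitals mark GCAAC, a core of the X box, and GATTGG, the Y box, on either strand.
H2-Aa: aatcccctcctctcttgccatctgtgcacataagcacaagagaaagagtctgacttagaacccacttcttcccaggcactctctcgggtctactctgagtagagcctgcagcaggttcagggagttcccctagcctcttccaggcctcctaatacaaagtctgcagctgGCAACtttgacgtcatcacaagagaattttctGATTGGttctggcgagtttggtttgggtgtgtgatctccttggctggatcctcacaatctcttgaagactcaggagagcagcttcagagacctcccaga
H2-Eb1: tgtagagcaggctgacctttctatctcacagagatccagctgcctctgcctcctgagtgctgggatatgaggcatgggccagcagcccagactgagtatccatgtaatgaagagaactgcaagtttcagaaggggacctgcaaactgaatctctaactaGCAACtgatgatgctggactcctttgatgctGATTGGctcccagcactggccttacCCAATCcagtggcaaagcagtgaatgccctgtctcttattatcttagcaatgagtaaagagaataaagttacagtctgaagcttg

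In H2-Aa the pair began at position -81 from the start of the gene, with 27 bases between the motifs, and in H2-Eb1 at position -91 with 26 bases between them. Over 32851 mouse promoters of the same length, 35.2% held GCAAC and 16.1% held GATTGG, on either strand. GCAAC followed by GATTGG within 30 bases on the same strand was present in 0.49%. Of 13 genes of the class II pathway looked for, 10 had a promoter in the reference and 4 of these held the pair, namely H2-Aa, H2-Eb1, H2-Oa and H2-Ob. A match of letters is a description of the window and not a measured site.

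Several facts of the libraries bear on all values below. The WT libraries held 64958237 to 72876541 UMIs and the Arom hum libraries 92652109 to 111826460. Each library lists its own genes: 1071 to 1709 genes of the table are at 0 in every barcode of a library, and the least detected genes of a library that are listed mostly have a UMI in at least 0.185% to 0.266% of its barcodes. Thus 2362 of 16494 genes are not listed in all libraries, and a 0 over a whole library means that the gene is not listed there. Transcripts of CYP19A1 were counted 770, 797 and 787 times in the Arom hum libraries and 0 times in WT libraries, with 1, 2 and 3 of those UMIs in H2-Ab1-high, C1q-low cells.

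The 6 mice gave unequal numbers of cells, and 2 libraries stood apart. WT replicates 1 to 3 held 106, 114 and 36 of the cells and Arom hum replicates 1 to 3 held 256, 257 and 123. By Spearman correlation of summed counts over genes, Arom hum replicates 1 and 2 were the most alike pair of libraries (0.943), whereas Arom hum replicate 3 was nearer to WT replicates 1 and 2 (0.915 and 0.903) than to Arom hum replicates 1 and 2 (0.885 and 0.887). WT replicate 3, with the fewest cells, had the lowest correlations, 0.849 to 0.886. These correlations are across genes and describe the libraries. Of the 892 cells, 12 carried a barcode sequence also seen in another library (943 of all deposited barcodes did), and none shared it with another of the 892.

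The cells of Arom hum replicates 1 and 2 were shallower than those of the other 4 mice. The median UMIs per cell were 10429.5, 11671 and 12237.5 in WT replicates and 7157, 5928 and 12346 in Arom hum replicates. The median numbers of detected genes were 2348, 2427 and 2551.5 against 1804, 1629 and 2656. Shares of cells in the subset gates are for this reason also given after thinning each cell to 3000 UMIs, which 862 of the 892 cells reached.

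The cells were chosen by their UMIs of H2-Ab1, Napsa, Ccr7, Plbd1, Cytip, C1q, Pdgfra and Cd3e, and these values are a description. H2-Ab1 ranged from 10 to 417 UMIs per cell with a median of 90, and 816 of the cells held no C1q UMI. Cytip, a regulator of adhesion, was detected in 97.8%, the aspartic protease gene Napsa in 86.8%, Plbd1 in 76.7% and Ccr7 in 30.8% of them. At the limit on H2-Ab1, 9 cells held 10 or 11 UMIs and 17 barcodes that met the rest of the rule held 8 or 9. A UMI of Ptprc, which encodes the leukocyte antigen CD45, was present in 8 of the former and 12 of the latter. At the C1q limit, 23 cells held 2 or 3 UMIs and 9 barcodes outside held 4 or 5, but 553 barcodes in all were left out by that limit alone. At the limit on the other 4 genes, 297 cells had a UMI of exactly 2, whereas 173 barcodes outside had 1 and 117 had none. Those 117 held Ptprc in 22.2%, against 85.9% of the 892 cells.

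The label of dendritic cells was checked against its markers, and the data bore it out only in part. Cd74 and H2-Aa were detected in 100% of the cells and H2-Eb1 in 74.1%. These are class II pathway genes, and the rule chose the cells by H2-Ab1, so their detection was in part set in advance. Cd74 and H2-Aa were also high in macrophages, as given below. The integrin gene Itgax, which encodes CD11c, was detected in 21.6% of the cells and in 0.235% of endothelial cells, taken as barcodes with at least 2 UMIs each of Pecam1 and Cdh5 and none of Ptprc or Pdgfra. Zbtb46, a transcription factor of classical dendritic cells that endothelial cells also make, was detected in 11.4% of the cells and 16.2% of endothelial cells. Flt3, the receptor for the growth factor of dendritic cells, was listed in only 2 libraries, where 33 cells of Arom hum replicate 1 and 31 of replicate 2 had a UMI. Several genes shared with monocytes were frequent, with Lyz2 in 94.2%, Cd14 in 92.2%, Cd68 in 75.3%, Ccr2 in 54.9% and Csf1r in 49.2% of the cells. Others of the list of monocytes and macrophages were rarer, such as Apoe in 36.5% and Folr2 in 2.24% of the cells. The T cell genes Trac and Trbc2, the natural killer cell gene Nkg7 and the mast cell genes Mcpt4 and Tpsb2 had no UMI in any of the 892 cells. Of these genes, Trbc2 is listed in all libraries, Trac and Mcpt4 in 5, Tpsb2 in 4 and Nkg7 in 2. The rule allowed no Cd3e UMI, so a lack of T cell genes was in part set by it. Other genes of these lists had UMIs, such as Il7r of the T and natural killer cell list in 71.1% of the cells.

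The cells made up a larger part of the barcodes in each Arom hum mouse than in any WT mouse under the rule as given, although the design cannot reach significance. They were 1.24%, 1.54% and 0.532% of the barcodes within the limits in WT replicates and 2.40%, 2.11% and 1.56% in Arom hum replicates. The groups did not overlap, but WT replicate 2 and Arom hum replicate 3 lay side by side, and their exact 95% binomial intervals of 1.28% to 1.85% and 1.30% to 1.86% covered each other. The means were 1.11% ± 0.519 in WT and 2.02% ± 0.425 in Arom hum mice (SD, n = 3 each), a ratio of 1.83, with p = 0.1 by a 2-sided exact permutation test. That is the smallest p that 3 mice against 3 allow. The intervals cover counting error only. The separation was kept with no C1q UMI allowed and without barcodes with B cell genes, and lost under the 8 other settings of the rule, such as mitochondrial UMIs at most 5% (2.40% in WT replicate 2 and 1.77% in Arom hum replicate 3), the study's limits (3.00% and 1.91%) or without marked doublets (1.54% and 1.5%), with exact permutation p of 0.2 to 0.3.

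Among leukocytes the order was different. Of barcodes with a Ptprc UMI, the cells were 32.1%, 40.4% and 30.4% in WT replicates and 16.7%, 24.0% and 47.2% in Arom hum replicates. The groups overlapped, because Arom hum replicate 3 was the highest of all 6 mice and replicates 1 and 2 were the lowest. The means were 34.3% ± 5.33 and 29.3% ± 16.0 (SD, n = 3 each; p = 0.7 by exact permutation test). Without Arom hum replicate 1 the sign of the difference turned, from -5.03 to 1.30 percentage points. Without Arom hum replicate 3 the difference was -13.99 points and the groups did not overlap (exact permutation p = 0.1, the smallest that 3 mice against 2 allow). The C1q limit took unequal numbers from the mice. Dropping it raised the cells from 256 to 557 in Arom hum replicate 1 and from 257 to 450 in replicate 2. Replicate 3 rose from 123 to 142, and WT replicates from 106 to 119, 114 to 134 and 36 to 43. Arom hum replicate 1 then held 35.2%, beside the lowest WT mouse at 35.7%. Replicate 2, at 40.2%, lay below the highest WT mouse at 47.2%, and replicate 3 stayed highest at 54.0%. The C1q-positive macrophages (at least 10 summed C1q UMIs, no Pdgfra and no Cd3e) numbered 1127 and 466 in Arom hum replicates 1 and 2 but 40 in replicate 3, and 129, 39 and 37 in WT replicates. Whether more barcodes of a type mean more cells in the tissue or more of them released by the dissociation cannot be told apart.

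**Figure D1:**
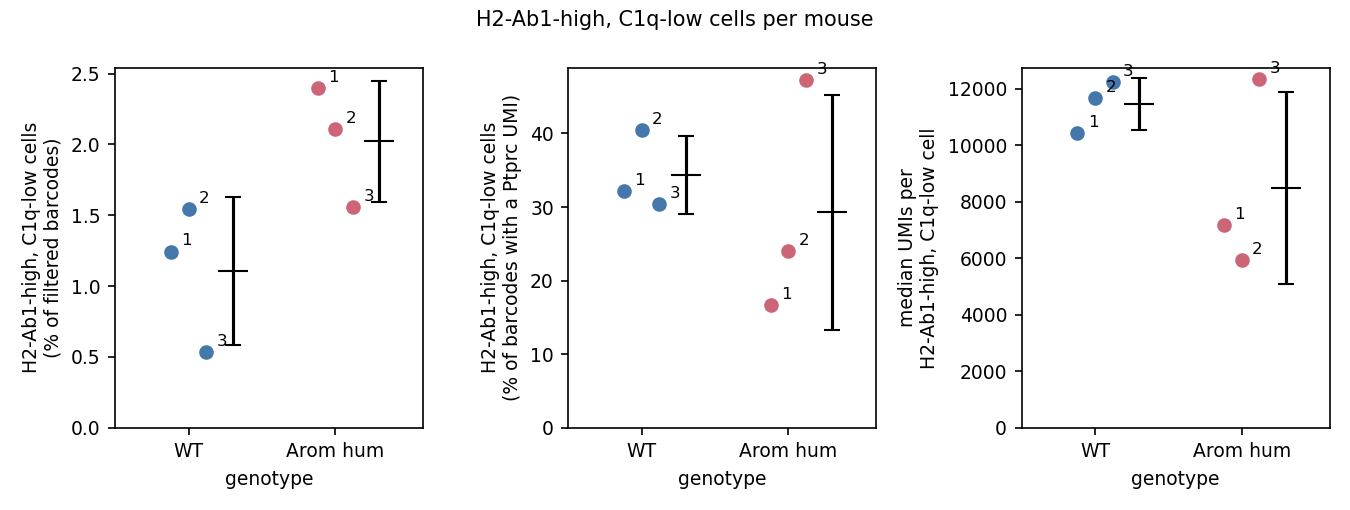
H2-Ab1-high, C1q-low cells in each mouse, as a percent of barcodes within the limits (left), as a percent of barcodes with a Ptprc UMI (middle), and by their median UMIs (right). Points are mice numbered by replicate, and bars give the mean ± SD (n = 3). The left panel separates the genotypes and the other panels do not, with Arom hum replicate 3 apart from replicates 1 and 2.

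The genes with the highest levels relative to all other barcodes within the limits are given next. They are a description, since the rule chose the cells, and levels are given in CPM, a gene's UMIs scaled to all UMIs of the summed cells of a mouse, as mean ± SD over the 6 mice. A 3′ library counts transcripts at their ends, so that CPM needs no division by gene length. Among genes outside the rule, the highest ratios were those of the lysozyme gene Lyz1, at 3024 ± 1447 CPM against 28.8 in the rest with a UMI in 39.9% of the cells, and of Cd52, a small surface glycoprotein of leukocytes, at 1564 ± 254 against 19.7 with a UMI in 97.3%. Cd74 stood at 26510 ± 3913 CPM against 524, and H2-Aa at 6195 ± 890 against 116. Retnla (9828 ± 4281, with a UMI in 42.9%, and 10590 in C1q-positive macrophages), the inflammatory cytokine Il1b (2080 ± 974), the receptor of interleukin-7 Il7r (548 ± 122) and the chemokines Ccl6 (1533 ± 284) and Ccl9 (1026 ± 175) were also among the first 20. In each case all 6 mice showed the direction.

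Set against C1q-positive macrophages, most genes of the class II pathway were higher on average in the chosen cells, from regulator to chaperone. The rule asked for H2-Ab1 in the cells and set no such limit for the macrophages. The order was thus in part set by the rule and is a description. The level of Cd74 was 26510 against 16670 CPM, and that of H2-Aa was 6195 against 3807. In single mice the gap in H2-Aa ran from 6723 against 2720 CPM in WT replicate 3 to 4688 against 4686 in Arom hum replicate 3. H2-DMa was at 648 against 315 CPM, H2-DMb1 at 732 against 318, and H2-DMb2 at 185 ± 47.6 against 54.2. Ciita, the master regulator of these genes, was at 67.6 ± 13.5 against 25.9. The proteases differed from this: Ctss, which trims the invariant chain, was at 1125 ± 328 against 1518 CPM, and the lysosomal protease gene Lgmn at 150 ± 91.7 against 716. H2-Oa and H2-Ob, inhibitors of H2-DM, were listed in 3 and 4 libraries, and reached 62.4 and 33.8 CPM in the cells and no more than 1.68 and 7.58 in macrophages.

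Other genes that set the cells apart from macrophages were the leukotriene B4 receptor Ltb4r1 (172 ± 50.02 against 15.8 CPM), the lysophospholipid receptor P2ry10 (64.7 ± 25.3 against 0.963) and Serpinb9, an inhibitor of granzyme B (90.5 ± 28.5 against 7.26). Lower in the cells, besides C1q, were the chemokine genes Ccl8 (4.21 ± 6.31 against 1155 ± 2103, with 5375 in Arom hum replicate 1 and 0 in WT replicate 2) and Pf4 (75.8 ± 54.6 against 1868), the folate receptor Folr2 (4.45 ± 4.14 against 277) and the apolipoprotein Apoe (1077 ± 1318 against 15470). The level of Apoe ranged from 40.0 in WT replicate 3 to 3526 CPM in Arom hum replicate 1. Lyz2 and Cd14 were high in both, at 11900 ± 2210 and 2744 ± 721 CPM in the cells and 15250 and 3569 in macrophages. The genes of T cell costimulation did not all differ: Cd80 was at 100 ± 29.2 against 20.4 CPM, but Cd86 at 376 ± 61.4 against 352.

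**Figure D2:**
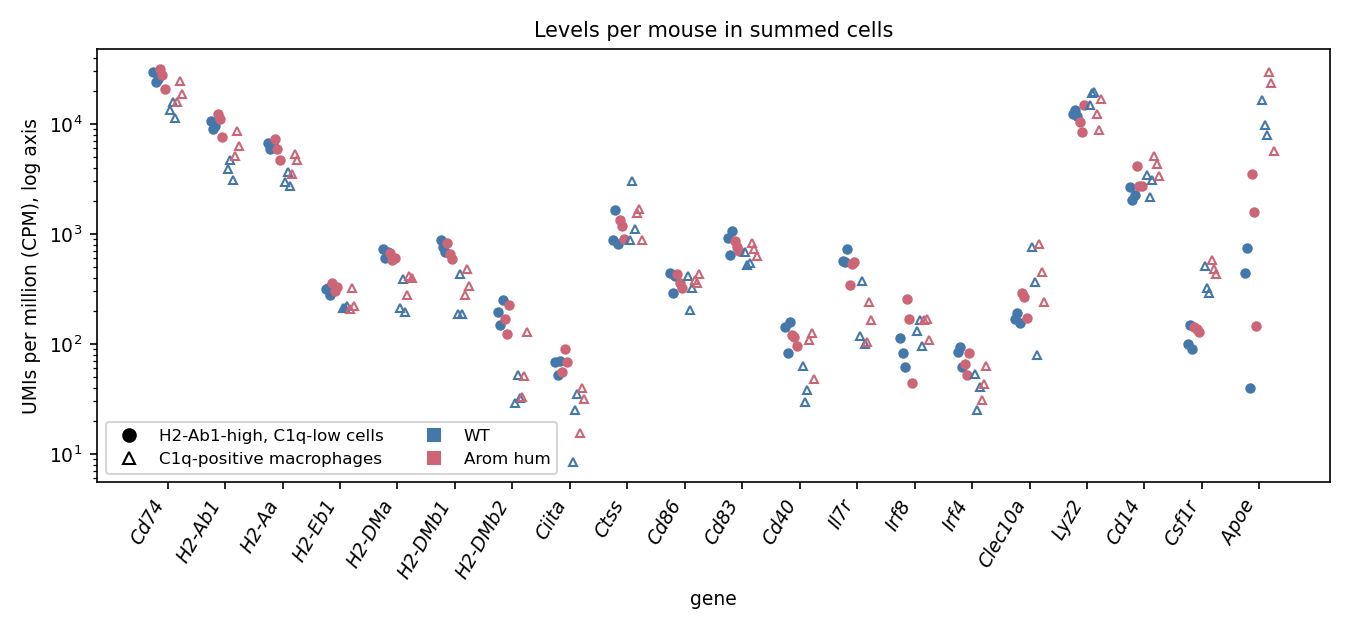
Levels of 20 genes per mouse on a log axis in summed H2-Ab1-high, C1q-low cells (filled circles) and in C1q-positive macrophages (open triangles), in WT (blue) and Arom hum (red) mice. H2-DMa, H2-DMb1 and Ciita sit higher in the chosen cells without overlap, whereas Cd74, H2-Aa, Lyz2 and Cd14 overlap between the groups of cells, and Apoe spreads from 40.0 to 3526 CPM over the mice.

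The cells were not uniform, and Ccr7 divided them. Cells with at least 2 Ccr7 UMIs numbered 235 and cells with none 617. The former were 24.5%, 16.7% and 27.8% in WT replicates against 32.4%, 30.4% and 15.4% in Arom hum replicates, so the genotypes overlapped. These shares were not thinned. The median depths of both sets within a mouse were furthest apart in WT replicate 3, at 11598.5 UMIs with and 13737 without Ccr7, and were 7407 and 7099 in Arom hum replicate 1. As Ccr7 made the division and is a gene of the rule, what follows is a description and not a test, and the genes outside the fixed lists were chosen after their values were seen.

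The Ccr7-positive cells carried several genes known from mature, migrating dendritic cells. Il4i1, an amino acid oxidase that restrains T cells, was at 161 ± 77.7 CPM against 3.27 ± 3.85 in cells without Ccr7 (SD, n = 6 mice). Tbc1d4, a regulator of vesicle traffic, stood at 273 ± 136 against 12.3 ± 11.8, and the oxysterol receptor Gpr183 at 288 ± 69.5 against 34.8 ± 22.3. Cd40, the receptor for T cell help, was at 278 ± 124 against 67.8 ± 21.0, and Ly75, which encodes the endocytic receptor DEC-205, at 61.7 ± 32.1 against 4.72 ± 2.10. All 5 genes were higher in 6 of 6 mice, and so were Cxcl16, Cst3, Ebi3, Serpinb9, Ccl5 and Traf1. Cst3 was the most abundant of them, at 15260 ± 5055 against 5644 ± 1774 CPM. Not all genes of the fixed list of mature dendritic cells differed in this way. Birc3 was at 155 against 145 CPM and higher in 2 of 6 mice. Socs2 was at 39.4 against 32.7 CPM and higher in 4 of 6, and Nudt17 at 6.21 against 0.662 and higher in 3 of 6. B cell genes were also higher on average in the Ccr7-positive cells, Cd79a at 77.0 ± 134 against 2.13 ± 5.23 CPM in 3 of 6 mice and Ighm at 129 ± 163 against 19.4 ± 13.6 CPM in 5 of 6, and their part in the other values was not tested.

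Several genes of monocytes and several chemokines were higher in the cells without Ccr7, and those named here were so in 6 of 6 mice. Other genes of the same lists went the other way, such as Ccl5 and Cxcl16 above and Plac8 at 60.8 CPM against 103 in Ccr7-positive cells, higher there in 4 of 6 mice. Lyz2 stood at 14880 ± 1817 CPM in them against 2932 ± 956 in Ccr7-positive cells, and the eosinophil attractant Ccl24 at 292 ± 92.6 against 1.32 ± 3.22. The neutrophil attractant Cxcl2 was at 11900 ± 2471 against 2366 ± 852, Ccl6 at 1937 ± 213 against 360 ± 178, and Retnla at 12660 ± 4828 against 1454 ± 1270. The growth factor receptor Csf1r, which macrophages depend on, was at 155 ± 35.5 against 37.9 ± 15.8 CPM. The class II genes differed less between the 2 sets and in both directions. H2-Aa was at 7806 ± 1102 in Ccr7-positive cells and 5630 ± 735 in the others, and Cd74 at 32430 ± 2572 and 24580 ± 3690, both higher in 6 of 6 mice. H2-DMa, H2-DMb1 and Ctss were lower in the Ccr7-positive cells in 6 of 6 mice, at 487 against 701, 588 against 781 and 698 against 1259 CPM.

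**Figure D3:**
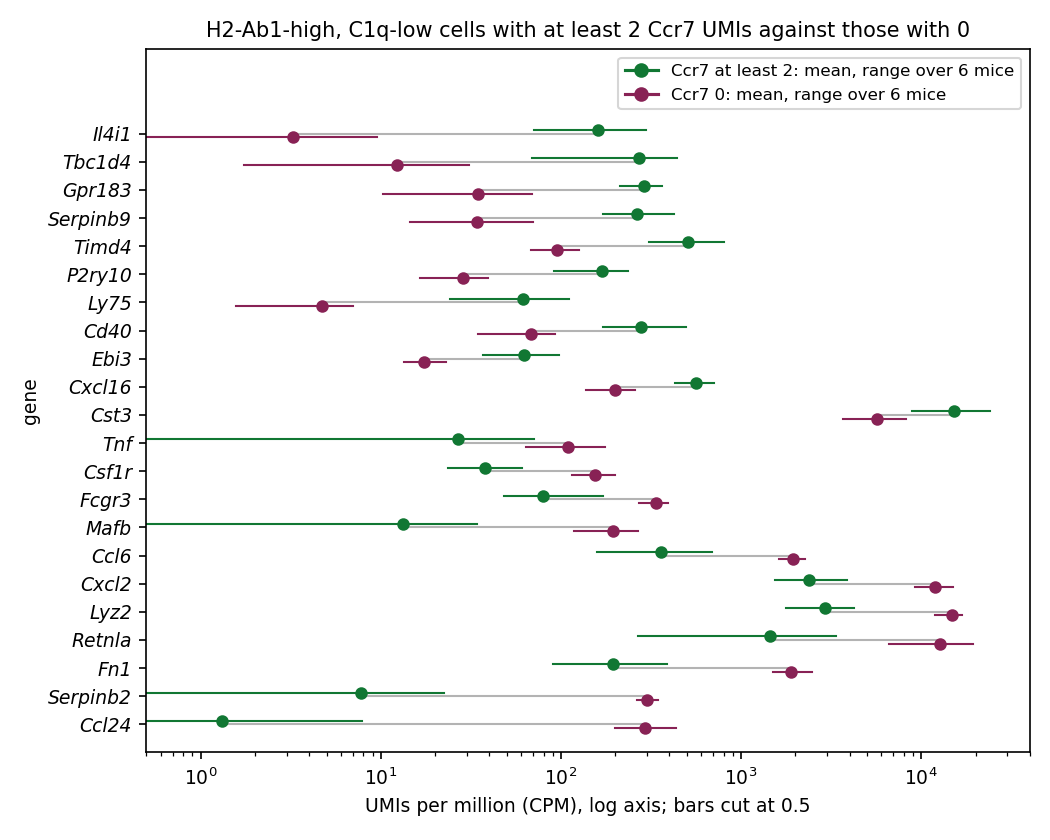
Levels of 22 genes on a log axis in H2-Ab1-high, C1q-low cells with at least 2 Ccr7 UMIs (green) and with none (purple). Points are means over 6 mice and bars the lowest and highest mouse. Il4i1 and Tbc1d4 are higher, and Ccl24, Lyz2 and Retnla lower, in the Ccr7-positive cells, with ranges that do not meet.

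Known subsets of dendritic cells were looked for with 3 gates on summed UMIs that use no gene of the rule. With 3 mice against 3 the smallest p is 0.1, so that the test cannot show a difference. The gate of type 1 dendritic cells, at least 2 UMIs of the chemokine receptor Xcr1 and the dead-cell receptor Clec9a, held 66 cells. It took 6.60%, 0% and 0% of the cells in WT and 12.5%, 7.0% and 7.32% in Arom hum replicates. The groups did not overlap, but these zeros and this order rest on the listing: Xcr1 was listed in 4 and Clec9a in 2 libraries, both in Arom hum replicates 1 and 2 only. The exact permutation test gave p = 0.1, the smallest possible, and 0.3 after Benjamini-Hochberg adjustment over the 3 gates. Thinned to 3000 UMIs, the shares were 4.76%, 0% and 0% against 4.10%, 3.29% and 1.64%, and overlapped.

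The gate of type 2 dendritic cells, at least 2 UMIs of the C-type lectin genes Cd209a, Clec10a and Mgl2, was the widest with 426 cells. The genes of this subset are not particular to the cells: the fixed list of type 2 genes summed to 617 to 1007 CPM in them and to 937 to 2211 CPM in C1q-positive macrophages. It held 43.4%, 52.6% and 38.9% of the cells in WT and 45.7%, 47.9% and 53.7% in Arom hum replicates (exact permutation p = 0.4, adjusted 0.6). Thinned, the shares were 24.8%, 29.2% and 14.3% against 31.6%, 33.3% and 21.3%. Cd209a was not listed in WT replicate 3. With Clec10a and Mgl2 alone, which all libraries list, the shares were 37.7%, 42.1% and 38.9% against 43.0%, 40.5% and 46.3% (exact permutation p = 0.2, 0.8 after adjustment over 4 gates added after the files were seen). Thinned, the shares with these 2 genes were 16.2%, 16.8% and 14.3% against 25.0%, 26.3% and 13.1% (exact permutation p = 0.4). The genotypes overlapped in both versions. Without WT replicate 3 the difference of the wider gate fell from 4.10 to 1.06 points.

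The gate of mature dendritic cells, at least 3 UMIs of Fscn1, Ccl22 and Cacnb3, held 30 cells, or 5.66%, 0.877% and 2.78% in WT replicates against 1.17%, 3.50% and 8.13% in Arom hum replicates (exact permutation p = 0.6, adjusted 0.6). Ccl22, which attracts regulatory T cells, was listed in 3 libraries and reached 163 CPM in Arom hum replicate 3. Without Arom hum replicate 3 the difference turned from 1.16 to -0.77 points. Thinned, the shares were 3.81%, 0.885% and 0% against 0.41%, 2.06% and 4.10%. Of the 30 cells, 8 were also in the type 2 gate and 6 in the type 1 gate, while those 2 gates shared 5 cells. Irf8, the transcription factor of type 1 dendritic cells, had at least 2 UMIs in 20.8%, 25.4% and 19.4% of the cells of WT replicates, against 32.8%, 25.3% and 11.4% in Arom hum replicates. Il7r had at least 2 UMIs in 63.2%, 69.3% and 77.8% against 46.5%, 55.6% and 78.0%. Both pairs of shares overlapped, with adjusted p = 1 in the exact permutation test for each. The level of Il7r in the summed cells was 570, 560 and 725 CPM in WT and 344, 528 and 559 CPM in Arom hum replicates, without overlap and with adjusted p = 0.917 in edgeR. For the Il7r share the difference was -10.04 points, -2.71 points when thinned (37.1%, 34.5% and 57.1% against 29.1%, 40.7% and 50.8%), and -19.03 points without Arom hum replicate 3, where the groups did not overlap (exact permutation p = 0.1, the smallest possible). Thinning changed the order of the mice for Irf8, with 6.67%, 7.08% and 2.86% against 18.9%, 13.2% and 4.10%, and without Arom hum replicate 3 the Irf8 difference moved from 1.28 to 7.17 points.

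Other cell types could also enter such a gate. Cd207, the lectin of Langerhans cells, was listed in WT replicate 1 and Arom hum replicate 2, where 15 cells each had a UMI. At least 2 summed UMIs of the B cell genes Cd79a and Cd79b were present in 14 cells, 6 of them in WT replicate 1. The plasmacytoid dendritic cell gene Siglech was listed in 2 libraries and had a UMI in 0.336% of the cells. The proliferation gene Mki67 was detected in 17.6% of the cells and 2.72% of endothelial cells, and the 10 genes of proliferation summed to 662 and 609 CPM in WT replicate 3 and Arom hum replicate 3, against 175 to 294 in the other 4 mice.

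Gene levels were then compared between genotypes in the summed cells of each mouse. With edgeR's quasi-likelihood test and Benjamini-Hochberg adjustment, 1 of 7544 genes was higher in Arom hum mice at adjusted p under 0.05 (0.0133%) and 0 were lower (0.0%). The unadjusted p was under 0.05 for 417 of these 7544 genes. DESeq2, run without the filter on low counts, called 33 of 14712 genes higher and 0 lower. In 784 genes (10.4%) the groups did not overlap, in 458 (6.07%) with all Arom hum mice higher and in 326 (4.32%) with all lower. Simulated counts at this size gave recovery of 31.3% of changes of 1 on the log2 scale, 83.6% of changes of 2 and 92.4% of changes of 3. Leaving out Arom hum replicate 3 raised the count from 1 to 67 genes, 54 of 7642 higher (0.707%) and 13 lower (0.17%). Of these 67 genes, 16 were in the fixed lists, among them Il4i1, Gpr183 and Cxcl1 but also the collagen genes Col1a1, Col1a2 and Col3a1. Not listed in every library were 10 of the 67. Arom hum replicates 1 and 2, which that fit kept, had the shallowest cells, at medians of 7157 and 5928 UMIs.

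The called gene was Rarres2, which encodes the chemoattractant chemerin. Its levels were 13.3, 15.6 and 10.5 CPM in WT and 103, 75.5 and 118 CPM in Arom hum replicates. Every Arom hum mouse was above every WT mouse, with a log2 fold change of 2.84 ± 0.24 (SE) and adjusted p = 0.00753 in edgeR. The UMIs were held by few cells. A Rarres2 UMI was present in 30 of 256 WT cells (11.7%) and 71 of 636 Arom hum cells (11.2%), and a single Arom hum cell held 152 of the 548 Rarres2 UMIs. Cells that the doublet caller Scrublet marked, 20 of the 636, held 258 of the 548. Without marked cells the levels were 13.5, 15.6 and 10.5 in WT and 104, 35.3 and 20.3 CPM in Arom hum replicates, and the log2 fold change was 1.98 with adjusted p = 0.963 in edgeR. Scrublet marked no barcode in WT replicates 2 and 3, so that this removal touched the genotypes unequally. The call was also lost, at adjusted p = 0.0557 to 0.0635, when any WT replicate or Arom hum replicate 1 was left out, and at 0.516 with mitochondrial UMIs at most 5%, both in edgeR, while the log2 fold change stayed at 2.72 to 2.99 with any 1 mouse left out. In fibroblast-like cells (defined below) Rarres2 stood at 1310 to 1411 CPM in WT and 1059 to 1154 CPM in Arom hum mice. Its level in the H2-Ab1-high, C1q-low cells was 0.791% to 1.19% of that in WT and 7.13% to 10.2% in Arom hum mice. The part of fibroblast RNA in the Rarres2 difference was not tested.

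The next 9 genes by p were not called by edgeR, and several encode collagens or other proteins that fibroblasts secrete. They were Prss23, Cilp, Col3a1, Col1a1, C3, Ehf, Clec3b, Igf1 and Col6a1, each with adjusted p of 0.154 to 0.159 in edgeR. Col1a1, a chain of type I collagen, was at 33.7, 39.6 and 6.32 CPM in WT and 158, 179 and 173 CPM in Arom hum replicates. The level of Col3a1 was 45.2, 41.7 and 33.7 against 285, 510 and 151 CPM. In all 9 genes the groups did not overlap, with Arom hum mice higher. Ehf is not listed in WT libraries, so its order and its calls rest on the listing. DESeq2 called 8 of the 9, all but Igf1, and all 9 were called by edgeR with no filter on low counts and without Arom hum replicate 3. Col1a1 and Col3a1 were among the genes that edgeR called with the replicate number as a block.

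Fibroblast markers were also counted in the cells. The 5 fibroblast markers Col1a1, Col1a2, Col3a1, Dcn and Lum summed to 317, 757 and 99.0 CPM in WT and 1520, 1928 and 1090 CPM in Arom hum replicates. Their median log2 fold change was 2.52, against -0.01 over all tested genes. Of the 5 genes, 3 did not overlap between groups, with Arom hum mice higher, against 6.07% of all tested genes. None was called by edgeR as reported, while DESeq2 and edgeR with the replicate number as a block called Col1a1 and Col3a1, and edgeR with no filter on low counts called Col1a1, Col1a2 and Col3a1. The 4 endothelial markers summed to 116, 185 and 362 CPM in WT and 128, 82.4 and 166 CPM in Arom hum replicates, with a median log2 fold change of -0.78. Of these 4, Kdr alone was lower in every Arom hum mouse, against 4.32% of all tested genes. In fibroblast-like cells (at least 2 Pdgfra UMIs, no Ptprc and no Pecam1) Col1a1 stood at 2711 to 3135 CPM in WT and 4807 to 7893 CPM in Arom hum mice. Its level in the H2-Ab1-high, C1q-low cells was 0.202% to 1.36% of that in WT and 2.00% to 3.60% in Arom hum mice. In endothelial cells Col1a1 was at 66.3 to 107 CPM in WT and 152 to 309 CPM in Arom hum mice, also without overlap. Without marked doublets Col1a1 was at 33.4, 39.6 and 6.32 CPM in WT and 61.8, 88.9 and 28.1 CPM in Arom hum replicates, with a log2 fold change of 1.05, and of the 5 genes Col3a1 alone did not overlap. Marked doublets held 66.8% of the Col1a1 UMIs of the Arom hum cells and 84.2% of those of Cilp. The part of fibroblast RNA in these differences was not tested.

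Ehf, an epithelial transcription factor of the ETS family, was at no more than 0.279 CPM in the fibroblast-like cells of any mouse and had no UMI in marked doublets. It was not listed in WT libraries, while 46 Arom hum cells held 98 UMIs, at 11.2, 24.6 and 18.2 CPM, so no fold change is given. C3, the central complement component, was at 16.8, 7.07 and 4.21 CPM in WT and 324, 93.3 and 112 CPM in Arom hum replicates, and marked doublets held 21.2% of its UMIs. In endothelial cells C3 was at 20.3 to 47.5 CPM in WT and 122 to 225 CPM in Arom hum mice, also without overlap. Without marked doublets, C3 in the H2-Ab1-high, C1q-low cells stood at 17.1, 7.07 and 4.21 CPM in WT and 333, 74.3 and 20.9 CPM in Arom hum replicates.

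**Figure D4:**
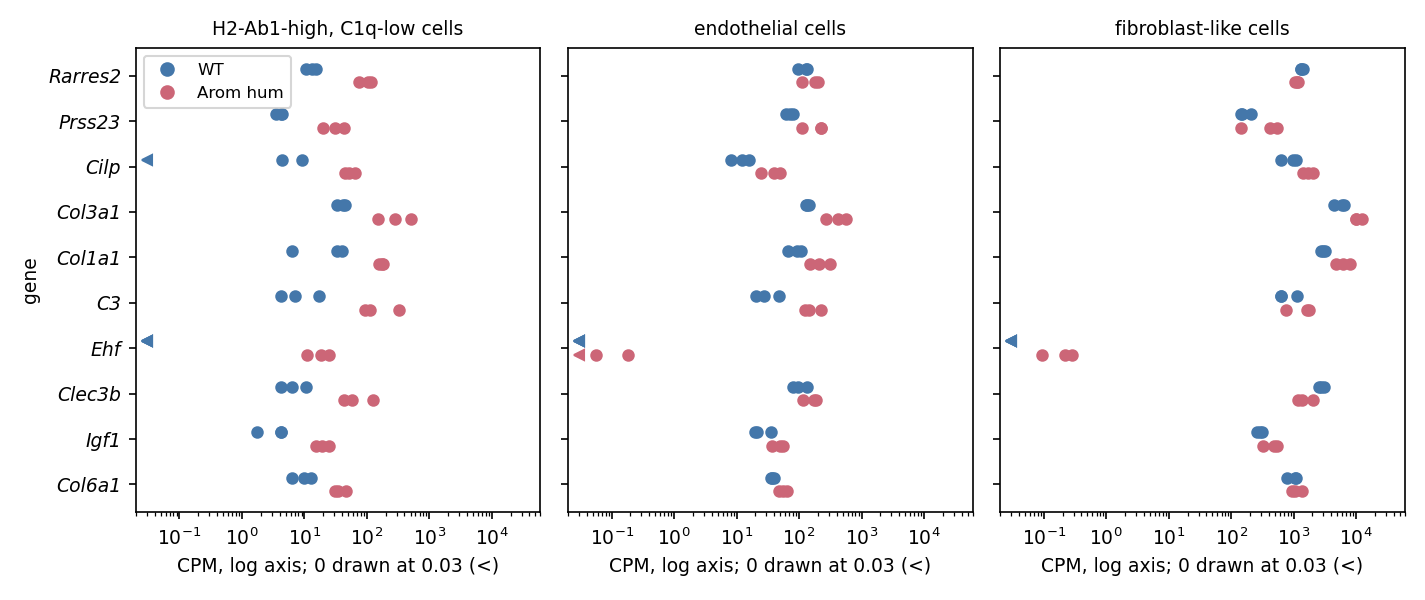
Levels per mouse on a log axis of the 10 genes with the lowest p in the comparison of genotypes in H2-Ab1-high, C1q-low cells (left), and of the same genes in endothelial (middle) and fibroblast-like cells (right). Levels of 0 are drawn as triangles at 0.03. In the left panel the genotypes are apart for every gene, though Ehf is not listed in WT libraries. All genes but Ehf are higher in the fibroblast-like cells than in the chosen cells.

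In the MHC class II pathway no gene outside the rule was called. Of 12 genes fixed for it 11 were in the table and tested, and the 9 listed in every library had a median log2 fold change of 0.02, against -0.01 over all tested genes. No gene of the list separated the groups, against 10.4% of all tested genes, which is about 1 gene in a list of this size. Cd74 was at 29590, 23810 and 25490 CPM in WT and 31600, 27690 and 20910 CPM in Arom hum replicates, and H2-Aa at 6678, 5926 and 6723 against 7215, 5940 and 4688. For both genes Arom hum replicate 1 was the highest mouse and replicate 3 the lowest. The level of Ciita was 69.1, 52.3 and 69.5 against 55.3, 90.4 and 69.1 CPM, which also overlapped. H2-Eb1 was far below H2-Aa, at 314.5, 323.9 and 278.1 against 359.3, 303.2 and 328.8 CPM, and overlapped as well.

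Costimulation and MHC class I gave no gene called by edgeR with all mice either. Without Arom hum replicate 3 edgeR called Pdcd1lg2 of the costimulation list, which only Arom hum replicates 1 and 2 list. Of 9 tested genes of costimulation, Cd80, Cd86, Cd40 and Cd83 among them, none was called and none separated the groups, against 10.4% of all tested genes, with a median log2 fold change of -0.14 (range -0.22 to 0.39). Of 15 tested class I genes none was called and none separated the groups, against 10.4% of all tested genes, and the median was 0.11. Psmb9, a subunit of the immunoproteasome, was at 68.2, 49.5 and 56.9 CPM in WT and 165, 96.7 and 46.4 CPM in Arom hum replicates, with replicate 3 the lowest of all. 

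Of the 12 tested genes of mature dendritic cells listed in every library, none was called and 1 separated the groups, a share near the 10.4% of all tested genes. This was Il4i1, at 20.4, 17.7 and 35.8 CPM in WT and 65.5, 62.4 and 42.0 CPM in Arom hum replicates, with a log2 fold change of 1.30 ± 0.31 (SE) and adjusted p = 0.487 in edgeR, or 0.0482 without Arom hum replicate 3. Tbc1d4 overlapped, at 104, 12.02 and 56.9 against 143, 160 and 35.4 CPM. Gpr183, the chemotactic receptor counted with the chemokine receptors, was at 80.6, 71.4 and 65.3 CPM in WT and at 171, 155 and 54.2 CPM in Arom hum replicates. Replicates 1 and 2 of Arom hum mice were thus above all WT mice, and replicate 3 below them.

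No chemokine or cytokine gene was called by edgeR with all mice, while DESeq2 called Ccl2 (adjusted p = 0.0304) and edgeR without Arom hum replicate 3 called Cxcl1 (0.0423) and Ccl8 (0.0388). The 18 chemokine genes summed to 14500, 16430 and 14610 CPM in WT and 19110, 17550 and 17920 CPM in Arom hum replicates, without overlap. Cxcl2 held a large part of that sum, at 7721, 9758 and 7737 CPM in WT replicates and 10570 and 10320 CPM in Arom hum replicates 1 and 2. Cxcl2 itself overlapped between the groups and was not called (adjusted p = 0.946 in edgeR). By gene, the tested chemokines listed in every library had a median log2 fold change of 0.04 (range -0.85 to 1.11). Of 14 tested chemokine genes listed in every library 1 separated the groups, and of 11 cytokine genes 3, against 10.4% of all tested genes. The chemokine was the monocyte attractant Ccl2, at 247, 435 and 207 CPM in WT and 795, 575 and 565 CPM in Arom hum replicates (log2 fold change 1.11 ± 0.28, SE; adjusted p = 0.513 in edgeR). Ccl24 was at 315, 332 and 211 against 129, 125 and 234 CPM, and Cxcl1 at 1333, 1596 and 1580 against 3213, 2450 and 1538. In both, Arom hum replicate 3 lay within the WT range. Among cytokines, Il1a was at 85.9, 72.8 and 27.4 against 92.9, 112 and 142 CPM, and Il15, which sustains memory T cells and natural killer cells, at 15.1, 13.4 and 23.2 against 4.06, 4.58 and 12.7. Neither overlapped between groups, with adjusted p of 0.892 and 0.888 in edgeR. Il10, an inhibitor of inflammation, was at 23.03, 96.9 and 21.1 against 261, 191 and 55.8 CPM, and Il1b at 2166, 928 and 1338 against 3301, 3144 and 1601. Both overlapped.

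Of 12 tested genes of monocytes and macrophages, 2 were higher and 1 lower in every Arom hum mouse, against 6.07% higher and 4.32% lower over all tested genes, and none was called. The mannose receptor Mrc1 was at 116, 95.5 and 80.1 CPM in WT and 136, 192 and 157 CPM in Arom hum replicates (log2 fold change 0.71 ± 0.21, SE; adjusted p = 0.711 in edgeR). Its neighbours were the transglutaminase F13a1, higher, at 56.9 to 65.1 against 66.4 to 83.2, and Adgre1, which encodes F4/80, lower, at 62.9 to 84.3 against 55.8 to 57.8. The B cell gene Cd79b was lower in every Arom hum mouse, at 34.6, 13.4 and 8.43 against 3.55, 4.58 and 0.553 CPM, with adjusted p = 0.496 in edgeR.

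The remaining lists gave no gene called by edgeR with all mice. DESeq2 called Msln of the mesothelial markers (adjusted p = 0.0113), and edgeR without Arom hum replicate 3 called Irf7, Tgfbr2 and Aldh1a2 (adjusted p of 0.0482 to 0.0483). Over all fixed lists that fit also called Flt3, Clec9a, Ccr9, Ly6d, Pdcd1lg2 and Chil3. Only Arom hum replicates 1 and 2 list these genes, so their calls rest on the listing. Of 14 interferon-stimulated genes, 7 were tested and had a median log2 fold change of 0.43. Irf7, a regulator of interferon genes that did not pass the filter on low counts, was at 3.54, 4.24 and 4.21 CPM in WT and at 39.1, 16.0 and 3.87 CPM in Arom hum replicates. The medians were 0.04 for 9 genes of pattern recognition, -0.03 for 5 chemokine receptors, -0.02 for 11 cytokines, -0.19 for 9 genes of dissociation stress and -0.003 for 10 genes of proliferation. The glucocorticoid receptor Nr3c1 passed the filter on low counts, at 39.9 to 67.9 CPM in WT and 43.6 to 53.8 CPM in Arom hum mice. The estrogen receptor Esr1 had a UMI in 1.91% of the cells and 1.77% of endothelial cells.

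**Figure D5:**
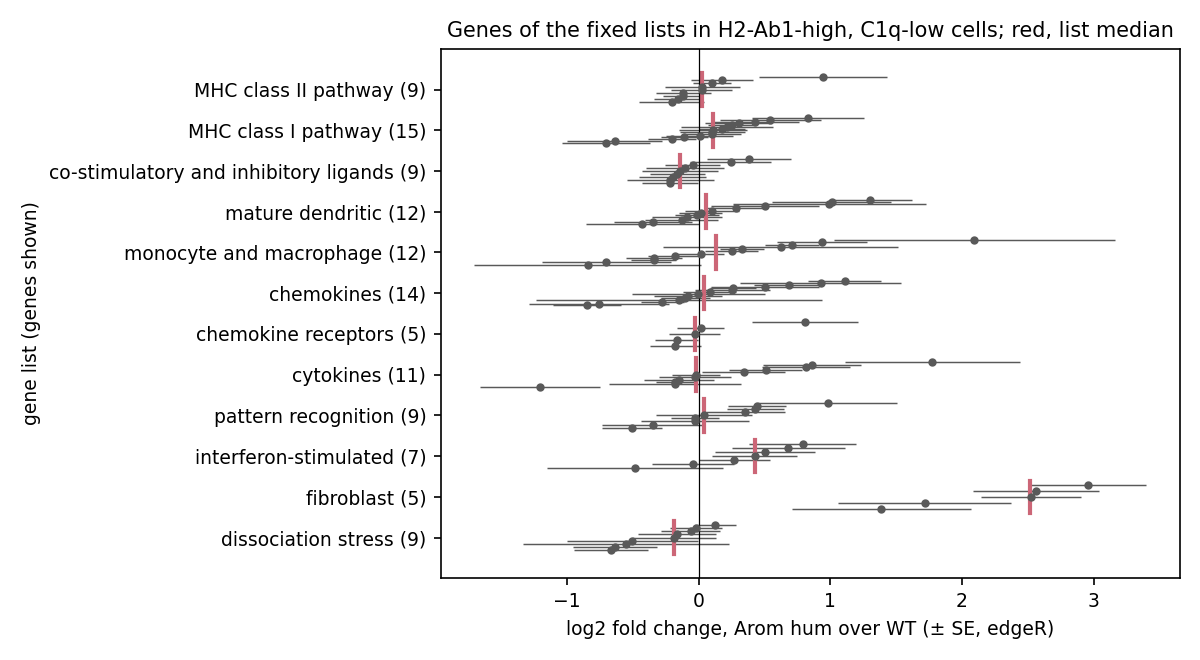
Log2 fold changes, Arom hum over WT, ± SE, of the tested genes of 12 fixed lists in H2-Ab1-high, C1q-low cells, with the median of each list in red. Medians lie between -0.19 and 0.43, except for the 5 fibroblast genes at 2.52, and the fit shown, edgeR with all mice and the filter on low counts, called none of these genes.

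Whether a genotype difference differed from that in C1q-positive macrophages was tested as an interaction, with the mouse as a term. Of 8291 genes, edgeR called 1 (0.0121%), which was Prg4, the gene of lubricin. Its levels in the H2-Ab1-high, C1q-low cells were 2.66, 1.41 and 0 CPM in WT and 67.5, 8.01 and 63.0 CPM in Arom hum replicates. In the macrophages they were 881, 151 and 1762 CPM in WT and 94.9, 20.2 and 336 CPM in Arom hum replicates. The difference of the log2 fold changes was 7.22 ± 0.76 (SE) with adjusted p = 0.0153 in edgeR. Only 18 of the 636 Arom hum cells had a Prg4 UMI, 1 cell held 108 of the 261 UMIs, and marked doublets held 44.1% of them. Without marked doublets the levels in Arom hum replicates were 69.7, 4.87 and 2.99 CPM and the adjusted p was 0.481 in edgeR. In fibroblast-like cells Prg4 stood at 376.0 to 824.5 CPM in WT and 285.1 to 507.6 CPM in Arom hum mice. The study names Prg4 among the genes of its fibroblast-like clusters 6 and 15. The part of fibroblast RNA in the Prg4 difference was not tested.

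Next came Pglyrp1, which encodes a bactericidal peptidoglycan-binding protein, with adjusted p = 0.0573 in edgeR and no call. It was called by DESeq2 (adjusted p = 0.031) and by edgeR with mitochondrial UMIs at most 5% (0.0257). Its levels in the cells were 31.9, 17.0 and 29.5 CPM in WT and 27.9, 28.0 and 15.5 CPM in Arom hum replicates, but in macrophages they were 19.9, 6.84 and 24.4 against 1.13, 0.842 and 0 CPM. The levels in the cells overlapped between genotypes, while those in macrophages did not, and marked doublets held 3.03% of its UMIs in Arom hum cells.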

How the data were processed

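Single-cell libraries of LAM tissue from 3 WT and 3 Arom hum mice were analysed. What the authors deposited are counts, that is UMIs of 16494 genes in 63647 barcodes, not normalized. All values were whole numbers, and 0 columns of values were without a sample. The submitters' processing notes name Cell Ranger 3.0.2 and mm10, and the study's methods add human CYP19A1 to that genome. Genes appear to have been filtered in each library separately, since each library has genes at 0 in all of its barcodes. The limits of the study on genes (200 to 2500) and mitochondrial UMIs (5%) were not applied to the deposited table and are an alternative here.

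The cells, gene lists and tests were chosen with earlier results of these data known. Groups follow the sample titles. Genes named are those of the fixed lists, the called genes, the 10 with the lowest p when fewer than 5 were called, the 20 with the highest ratio to the rest, 10 in each direction against macrophages (prior 10 CPM), and called interaction genes. Exceptions are said to be so: genes outside the lists in the Ccr7 split, Pglyrp1 and, in the closing section, Ren1 were chosen after their values were seen. Counts were summed per mouse over the cells. edgeR 4.0.16 in R 4.3.3 was run with TMM scaling, filterByExpr, estimateDisp, glmQLFit and glmQLFTest, and Benjamini-Hochberg adjustment over all tested genes at 0.05. Shares were compared by 2-sided exact permutation over mice. Doublets were marked with Scrublet in scanpy 1.11.5, in 1.81% to 2.89% of the barcodes of 4 libraries and 0 of WT replicates 2 and 3. They were kept in the main results. The edgeR steps were tested on simulated data built from the sums of the cells (7544 genes), where 7 of 145 calls were false. Alternatives were RLE scaling, no filter on low counts, DESeq2 1.42.0, a block for the replicate number, leaving out mice in turn, other limits of the rule, and cells thinned to 3000 UMIs. Figures were drawn with matplotlib 3.10.9, tables handled with pandas 2.3.3 and exact tests run with scipy 1.17.1 in Python 3.11.15.

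The study's methods place 1 WT and 1 Arom hum littermate on each of 3 dates, but the labels do not tie replicate numbers to dates. Samples of the same number deviated together by 0.264, 0.0551 and 0.274 (correlation over 1264 genes above 100 CPM), not above 0.1 in every pair, so the numbers were not used to pair mice. Tests over single cells were avoided, as the cells of 1 mouse share their source. Per the study's methods each library is 1 mouse.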

Additional observations from a re-analysis of the deposited data

Results flagged for a closer look

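The difference in the genotype effect on Prg4 between H2-Ab1-high, C1q-low cells and C1q-positive macrophages was 7.22 on the log2 scale. It is listed here because the test of the difference between both groups of cells passed its threshold. Prg4 was higher in 3 of 3 Arom hum mice in the cells, and lower in macrophages of Arom hum than of WT mice except that Arom hum replicate 3 (336 CPM) lay above WT replicate 2 (151 CPM). The call was lost without WT replicate 1 (adjusted p = 0.226 in edgeR), without WT replicate 3 (0.128) and without Arom hum replicate 2 (0.0564). With marked doublets left out the difference was 6.30 and the adjusted p 0.481 in edgeR.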

How the results depend on the processing

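The count of genes called between genotypes, 1 in the reported fit, was 28 with no filter on low counts, 33 with DESeq2, 20 with the replicate number as a block, 0 without marked doublets and 0 with mitochondrial UMIs at most 5%. Leaving out 1 mouse gave 0 to 67, with 67 without Arom hum replicate 3, 2 without Arom hum replicate 2, 0 without WT replicate 3 or Arom hum replicate 1, and 1 gene other than Rarres2 without WT replicate 1 or WT replicate 2. The count of 1 for the difference from macrophages was 99 with no filter on low counts, 3 with DESeq2, 0 without marked doublets and 2 with mitochondrial UMIs at most 5%, and 0 to 2 with 1 mouse left out, of which the counts of 0 came without WT replicate 1, WT replicate 3 or Arom hum replicate 2. The cause was not tested. The share of Ptprc barcodes, a difference of -5.03 percentage points, ranged from -13.99 (without Arom hum replicate 3) to 1.30 (without Arom hum replicate 1) and was 3.39 without the C1q limit. The mature gate, a difference of 1.16 points, ranged from -0.77 (without Arom hum replicate 3) to 2.71. With 1 mouse left out, the Irf8 gate ranged from -3.54 (without Arom hum replicate 1) to 7.17, and the gate of Il4i1 and Socs2 from -1.26 (without WT replicate 2) to 2.25, with -1.21 without Arom hum replicate 3. The share of filtered barcodes kept the direction of its mean in 17 of 17 alternatives, with differences of 0.627 to 2.29 points and exact permutation p of 0.1 to 0.3. Of 146 alternative values of the 10 genes with the lowest p, 108 kept their side of the threshold, 6 lost it, 32 gained it and 0 changed sign, and of 140 for the difference, 123, 4, 13 and 0.

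With the replicate number as a block, Rarres2 had a log2 fold change of 2.79 and adjusted p = 0.0231 in edgeR, and the share of filtered barcodes differed by 0.914 points (p = 0.25 by exact sign flips of 3 pairs, the smallest possible). Not every sample correlated best with its own number: Arom hum replicate 2 did so with WT replicate 1 (0.157, against 0.0551). A block for the difference from macrophages was not run, because the mouse was already a term. Depth limits the smallest mouse, WT replicate 3 with 36 cells, and changes of 1 on the log2 scale were recovered in 31.3% of simulated cases.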

Other observations

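Lyz1, a lysozyme gene, was low in the H2-Ab1-high, C1q-low cells of Arom hum replicates 1 and 2, at 1173 and 1199 CPM, against 3992, 3672 and 4395 CPM in WT replicates and 3715 CPM in Arom hum replicate 3. Arom hum replicates 1 and 2 were also the lowest in C1q-positive macrophages, but WT replicate 1 lay near them and Arom hum replicate 3 was the highest. There Lyz1 was at 324 and 405 CPM in Arom hum replicates 1 and 2, 495, 1357 and 1440 in WT replicates and 1943 in Arom hum replicate 3. Ren1, the gene of renin, was at 13.3, 8.49 and 0 CPM in WT and 59.4, 112 and 51.9 CPM in Arom hum replicates. It was not called in the reported fit (log2 fold change 3.10, adjusted p = 0.205 in edgeR), and was called with no filter on low counts (adjusted p = 0.0121 in edgeR), without Arom hum replicate 3 and with DESeq2. The study lists Ren1 among the markers of a fibroblast cluster high in Esr1, whose cells came mostly from Arom hum mice. The part of fibroblast RNA in the Ren1 difference was not tested.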
